A study of Rattus norvegicus with 6 samples.

Results

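The genes described here are 10 transcription factors tied to mesenchymal identity and to epithelial-mesenchymal transition (EMT), the change in which epithelial cells loosen their junctions and take on fibroblast features. They were taken from the table by exact gene symbol and make up 10 of its 17525 genes: Snai1, Snai2, Zeb1, Zeb2, Twist1, Twist2, Prrx1, Tcf21, Nr2f2 and Gli1. Their levels were read in 3 messenger RNA libraries of the group titled ATR, called ATR 1, ATR 2 and ATR 3. Runs of 3 values follow that order. The cells were primary ovarian granulosa cells, the somatic cells that line the follicle, grown in culture after enzymatic dispersal of whole ovaries from 21-day-old SD rats killed 48 h after an injection of 60 IU PMSG, a gonadotropin that drives follicle growth. Per the series' design text, the group titled Control shares the animals' age, the hormone and the cell preparation, and its 3 libraries are not analysed here, so nothing reported here measures what an exposure does. The series concerns the herbicide atrazine, but no label used here says what ATR stands for, at what dose or for how long it was given, or whether rats or dishes received it. Whether each library stands for its own animal or culture is not stated either, and p-values here measure only the spread between these libraries, which may be technical.

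The Snail factors (Snai1, Snai2) and the Zeb factors (Zeb1, Zeb2) are zinc finger proteins that bind E-box sequences with the core CACCTG and are best known as repressors of the E-cadherin gene Cdh1. Twist1 and Twist2 are basic helix-loop-helix proteins that pair with E proteins such as Tcf3 and Tcf12, and Id proteins compete for those partners. Prrx1 is a homeobox factor of limb and facial mesenchyme, Tcf21 a helix-loop-helix factor of mesenchyme in gonad, heart and kidney, and Nr2f2 (COUP-TFII) an orphan nuclear receptor found in gonadal interstitial cells. Gli1 is both an effector and a target of Hedgehog signalling, and in the mouse ovary it marks precursors of theca cells, which answer Hedgehog ligands made by granulosa cells.

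Estimated read counts over the 17525 genes summed to 19020494, 18677212 and 19170552. Of the 8 granulosa markers, which summed to 2918, 2640 and 2538 TPM, the gap junction gene Gja1 stood at 2036, 1863 and 1821 TPM and the inhibin genes Inha at 522, 427 and 378 TPM and Inhba at 282, 284 and 280 TPM. Fshr, the receptor stained by the submitters as proof of identity, stood at 7.38, 5.25 and 4.77 TPM (expression scaled to transcript length and library size), and Foxl2 at 63.6, 53.8 and 48.0 TPM. Amh and Cyp19a1 did not exceed 0.14 TPM in any library. Stromal fibroblast markers summed to 3375, 4728 and 4266 TPM, surface epithelium markers to 2332, 2211 and 2279, smooth muscle markers to 529, 523 and 496, theca markers to 123, 142 and 142, and leukocyte markers to 95.6, 121 and 119 TPM. Of the stromal sum, Col1a1 gave 2596, 3062 and 2996.5 TPM. Of the surface epithelium sum, Upk3b gave 1513, 1316 and 1379 TPM, Krt8 374, 412 and 429 TPM and Lrrn4 189, 149 and 164 TPM. Its members Krt19, Epcam, Lhx9, Lgr5 and Muc16 did not exceed 0.46 TPM in any library. Of the theca sum, Star gave 77.1, 105 and 110 TPM and Aldh1a1 41.5, 33.6 and 26.9 TPM. Cyp17a1, Insl3 and Lhcgr did not exceed 0.20 TPM in any library. Of the leukocyte markers, Lyz2 stood at 60.2, 78.6 and 83.2 TPM, while Ptprc and Adgre1 stayed below 1 TPM. Endothelial markers summed to at most 4.53 TPM and oocyte markers to at most 1.56 TPM. Pecam1 and Cdh5, which define endothelium, were listed at 0 in ATR 1. The cultures thus held transcripts listed as markers of other ovarian cell types, though not every marker of each list. In such bulk RNA fewer cells of a type and less RNA per cell cannot be told apart.

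Of the 10 factors, 8 reached a mean of 1 TPM, as did 71.4% of all genes, and 2 were near the counting limit. Zeb2 had the highest mean, at 36.96, 36.3 and 36.5 TPM. Nr2f2 followed at 31.4, 32.6 and 32.1 TPM. Their means were 36.6 ± 0.343 and 32.1 ± 0.591 TPM (SD, n = 3 libraries), the steadiest of the tested factors on the log2 scale. The ranges of Zeb2 and Nr2f2 did not overlap. Prrx1, with a mean of 29.4 TPM, had no fixed place in this order: its 12.03 to 46.98 TPM spanned the ranges of Zeb2, Nr2f2 and Twist1, and it was the highest of the 10 in ATR 2. Lower down, the range of Snai1 overlapped those of Twist1 and Zeb1. Snai2 lay below Zeb1 without overlap, and Twist2 below Snai2. The median over the 10 factors was 13.6 TPM, against 10.1 TPM over all genes, and Zeb2 ranked at 4529 of 17525 genes.

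**Figure D1:**
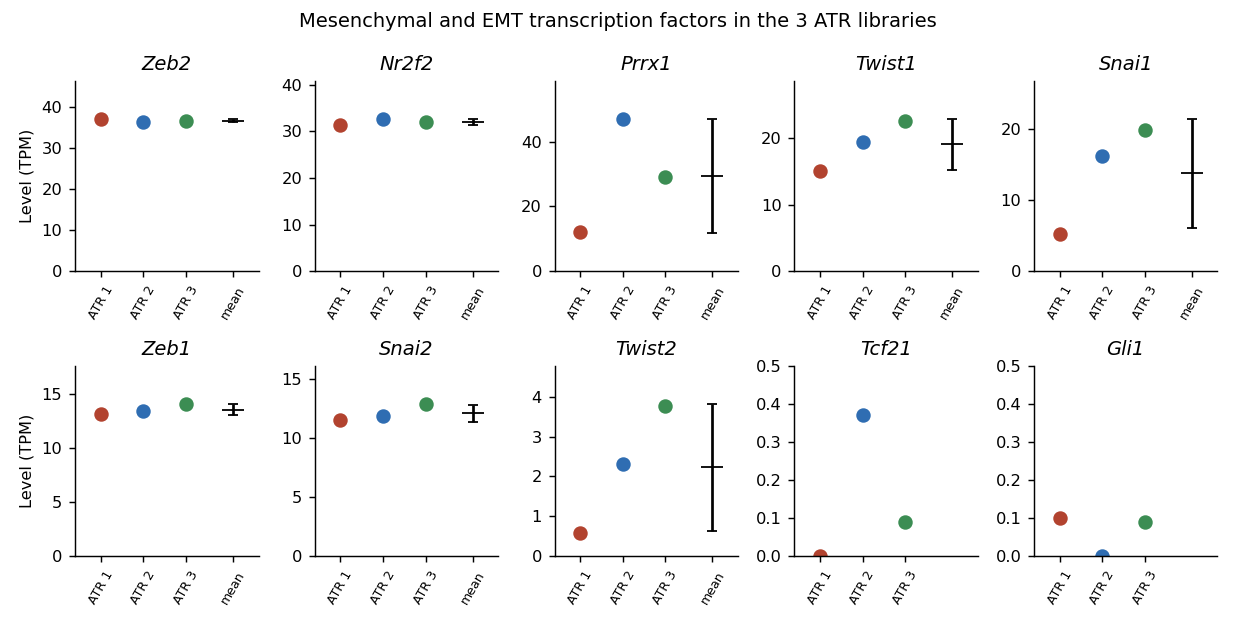
Level in TPM (vertical axes, each starting at 0) of each factor in ATR 1, ATR 2 and ATR 3 (points), ordered by mean level, with the mean and SD over the 3 libraries as a black bar; no bar is drawn for Tcf21 and Gli1, which had 5 and 6 reads in all. Prrx1, Snai1, Twist1 and Twist2 passed the chi-square test between libraries described below and are lowest in ATR 1. Zeb2, Nr2f2, Zeb1 and Snai2 did not pass, though Nr2f2, Zeb1 and Snai2 are also lowest in ATR 1, by less.

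A test divided the factors into those that varied between libraries and those not shown to vary. For each gene, read counts were set against scaled library sizes in a chi-square test, over the 13309 genes with at least 30 reads, with Benjamini-Hochberg adjustment at 0.05. Of the 8 factors with enough reads, 4 passed (Snai1, Twist1, Twist2 and Prrx1), against 23.2% of all genes tested. All 4 were lowest in ATR 1, as were 1207 of the 3087 genes that passed. These 1207 genes are 9.07% of all genes tested. Where 9.07% is given below, it is this share and not a share of the genes that passed. The test compares these libraries and not conditions, and it takes counting error as the sole source of spread. With the spread usual for these libraries added, a biological coefficient of variation of 8.24% from edgeR, 3 of the 8 passed, against 3.25% of all genes, and Twist1 did not (adjusted p = 0.306). Without ATR 1 the chi-square test passed 1 of the 8, Prrx1, against 11.9% of all genes.

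Snai1 was the Snail factor that varied. It had 73, 229 and 287 reads, or 5.19, 16.2 and 19.9 TPM. ATR 1 lay well under both other libraries, which were closer to each other. Scaled for library size, the reads of ATR 2 were 3.19 times those of ATR 1 (exact 95% interval 2.44 to 4.21) and those of ATR 3 were 3.93 times (3.03 to 5.16), with an adjusted p of 3.06e-26. Between ATR 2 and ATR 3 the ratio of ATR 3 to ATR 2 was 1.23 (1.03 to 1.47), and without ATR 1 the adjusted p was 0.108. Its paralogue Snai2 (Slug), known from neural crest cells, had 79, 82 and 91 reads, or 11.5, 11.9 and 12.9 TPM. These reads did not pass (adjusted p = 0.784), and the ratio of ATR 3 to ATR 1 was 1.15 with an interval of 0.843 to 1.58. That interval lies wholly below the Snai1 interval for the same pair. It overlaps the Twist1 interval for that pair, 1.29 to 1.86, so Snai2 is not shown to be steadier than Twist1. The Snai1 to Snai2 ratio of TPM was accordingly 0.452 in ATR 1, 1.37 in ATR 2 and 1.54 in ATR 3, so that which Snail gene led depended on the library. The remaining family member, Snai3, had at most 5 reads in a library.

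Zeb1 and Zeb2 differed little between libraries. Zeb1 stood at 13.2, 13.4 and 14.1 TPM and did not pass (adjusted p = 0.428), with a ratio of ATR 3 to ATR 1 of 1.10 (0.984 to 1.23). Zeb2, with 1856, 1808 and 1802 reads, had the narrowest limits of the 10 factors: ATR 2 over ATR 1 was 0.990 (0.927 to 1.06) and ATR 3 over ATR 1 was 0.972 (0.910 to 1.04), with an adjusted p of 0.808. Zeb2 exceeded Zeb1 in each library, by 2.81, 2.71 and 2.59 times on the TPM scale. The counts of Zeb1 and Nr2f2 are not whole numbers, so reads may be shared with other genes and their levels are less certain. In RefSeq an antisense RNA, Zeb2-as1, overlaps Zeb2, and without a stated strand setting reads of the pair cannot be told apart. There, a noncoding RNA gene and a protein-coding gene also overlap Zeb1, and noncoding RNA genes overlap Nr2f2 and Prrx1.

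Both Twist genes were lowest in ATR 1. Twist1, a regulator of cranial and mesodermal mesenchyme, had 198, 258 and 306 reads, or 15.1, 19.5 and 22.7 TPM. Its ratios were moderate, 1.32 for ATR 2 over ATR 1 (1.10 to 1.60) and 1.55 for ATR 3 over ATR 1 (1.29 to 1.86), with an adjusted p of 9.93e-05 by the chi-square test. Twist2 (Dermo1, named for its role in dermis) was scarce, with 6, 24 and 40 reads, or 0.58, 2.32 and 3.78 TPM. Its ratio of ATR 3 to ATR 1 was 6.67, but the interval of 2.81 to 19.3 is wide because ATR 1 held so few reads (adjusted p = 4.92e-05). Twist1 exceeded Twist2 by 25.9, 8.41 and 5.99 times on the TPM scale. Without ATR 1 neither passed (adjusted p of 0.262 for Twist1 and 0.226 for Twist2).

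Prrx1 had the highest mean level of the 4 that varied and was the sole factor to pass the test between ATR 2 and ATR 3 as well. It had 163, 628 and 397 reads, or 12.03, 46.98 and 29.2 TPM, so ATR 2 was highest and ATR 1 lowest. Scaled reads of ATR 2 were 3.92 times those of ATR 1 (3.29 to 4.68), and those of ATR 3 were 2.44 times (2.03 to 2.94). Set against ATR 2, ATR 3 stood at 0.622 (0.548 to 0.707). The adjusted p was 1.23e-59 over the 3 libraries and 5.63e-12 without ATR 1. Its paralogue Prrx2, also a homeobox factor of mesenchyme, stood at 15.4, 42.3 and 42.3 TPM. It too was lowest in ATR 1, at 2.80 times (2.34 to 3.37) as many scaled reads in ATR 2 and 2.82 times (2.36 to 3.39) in ATR 3. For Prrx2, unlike Prrx1, ATR 3 over ATR 2 was close to 1, at 1.01 (0.882 to 1.15). On the TPM scale Prrx1 exceeded Prrx2 in ATR 2 alone, by 1.11 times, against 0.780 in ATR 1 and 0.690 in ATR 3.

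**Figure D2:**
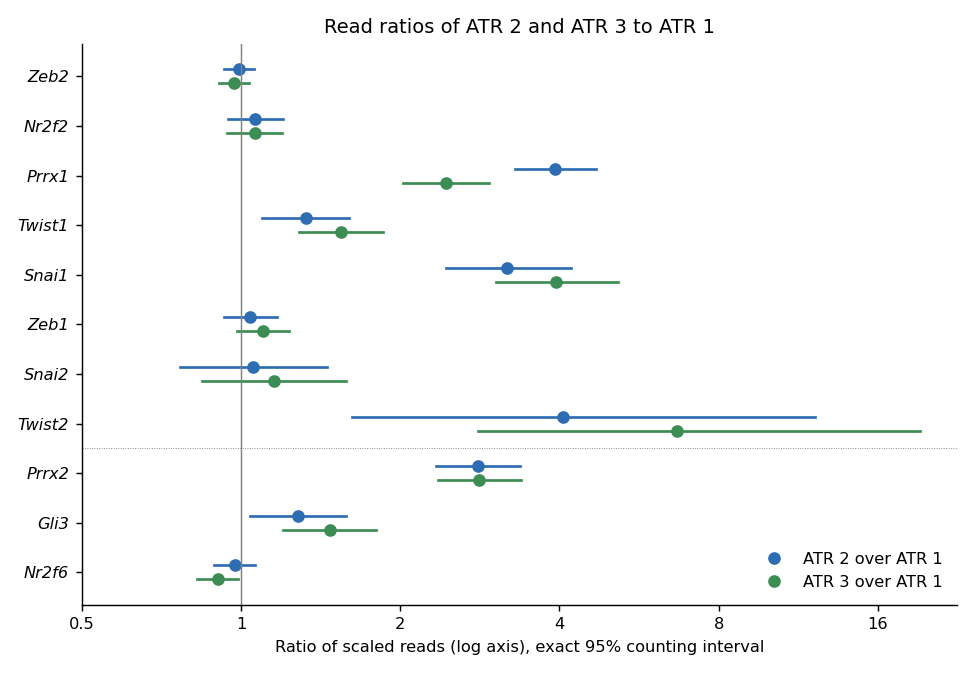
Ratio of library-scaled reads of ATR 2 (blue) and ATR 3 (green) to ATR 1 on a log axis, with exact 95% intervals for counting error as lines, for the 8 factors with at least 30 reads and, under the dotted line, for 3 relatives. Prrx1, Twist1, Snai1 and Twist2 lie to the right of 1 with both intervals, and Zeb2, Nr2f2, Zeb1 and Snai2 have intervals that include 1.

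The margin by which 3 of the varying factors differed was reached by few genes. Snai1, Twist2 and Prrx1 had at least 2 times as many scaled reads in both ATR 2 and ATR 3 as in ATR 1 and passed the test, as did 137 of 13309 genes, or 1.03%. This rule was not planned and follows the pattern already seen in these 3 factors, so the share is no test of it. The SD of log2(CPM + 0.5), where CPM is the read count scaled to library size, was 0.99 for Snai1, 0.97 for Prrx1, 0.85 for Twist2 and 0.31 for Twist1. Its median was 0.20 over the 8 tested factors, against 0.09 over all genes tested. The 4 that passed had 70 to 1188 reads in all, and the 4 that did not had 252 to 5466. The part of read number in this split was not tested.

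**Figure D3:**
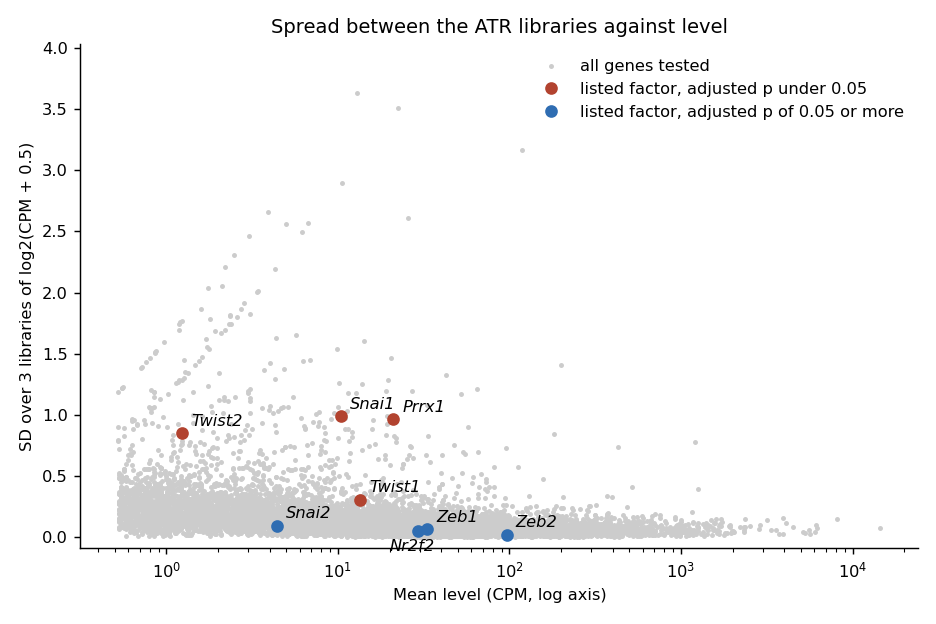
SD of log2(CPM + 0.5) over the 3 ATR libraries against mean CPM (log axis) for the 13309 genes tested (grey) and the 8 tested factors (red where the adjusted chi-square p was under 0.05, blue otherwise). Snai1 and Prrx1 stand at SDs of 0.99 and 0.97, above nearly the whole grey cloud at their level, and Zeb2 sits at 0.02 near its floor.

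Nr2f2, Tcf21 and Gli1 mark interstitial and theca lineages of the gonad. Nr2f2 had 538, 563 and 570 reads after rounding and did not pass (adjusted p = 0.691), with a ratio of ATR 3 to ATR 1 of 1.06 (0.941 to 1.20). Of its relatives, Nr2f6 was more abundant, at 65.4, 62.3 and 57.4 TPM, and Nr2f1 (COUP-TFI) far scarcer, at 0.65, 1.92 and 1.59 TPM. Nr2f1 was lowest in ATR 1, with a ratio of ATR 2 to ATR 1 of 3.12 (1.68 to 6.18), on counts that are not whole. Tcf21 had 0, 4 and 1 reads and Gli1 had 3, 0 and 3, too few to test or rank. Where a library had 0 reads, 3 reads, or 0.157 CPM in ATR 1 for Tcf21 and 0.160 CPM in ATR 2 for Gli1, is the upper limit that counting allows. In RefSeq Arhgap9 overlaps Gli1, so even these reads are uncertain.

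RefSeq promoter windows of assembly GRCr8 were found for 7 of the 10 factors. The 250 bases before the start are shown for the 4 factors that varied and for Zeb1. Capitals mark CACCTG, the E-box core bound by Snail and Zeb proteins, or its reverse complement CAGGTG. Coordinates are those of GRCr8, which is not the build named for the counts.
Snai1 (chr3:176667226-176667475, + strand): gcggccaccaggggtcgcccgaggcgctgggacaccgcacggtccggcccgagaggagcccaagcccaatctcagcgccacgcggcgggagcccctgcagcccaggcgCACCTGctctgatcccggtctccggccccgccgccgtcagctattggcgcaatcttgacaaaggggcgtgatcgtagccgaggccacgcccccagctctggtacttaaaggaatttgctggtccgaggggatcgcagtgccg
Prrx1 (chr13:78204074-78204323, - strand): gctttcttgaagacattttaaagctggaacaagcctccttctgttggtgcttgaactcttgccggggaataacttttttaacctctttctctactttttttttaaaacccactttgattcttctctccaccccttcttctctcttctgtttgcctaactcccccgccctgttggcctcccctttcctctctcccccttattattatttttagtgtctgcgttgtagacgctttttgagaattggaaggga
Twist1 (chr6:56402059-56402308, + strand): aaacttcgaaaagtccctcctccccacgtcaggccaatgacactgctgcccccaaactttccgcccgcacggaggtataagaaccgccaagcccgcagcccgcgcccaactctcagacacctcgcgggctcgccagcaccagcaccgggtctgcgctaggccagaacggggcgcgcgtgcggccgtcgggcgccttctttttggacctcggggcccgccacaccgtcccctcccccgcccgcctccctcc
Twist2 (chr9:99821992-99822241, + strand): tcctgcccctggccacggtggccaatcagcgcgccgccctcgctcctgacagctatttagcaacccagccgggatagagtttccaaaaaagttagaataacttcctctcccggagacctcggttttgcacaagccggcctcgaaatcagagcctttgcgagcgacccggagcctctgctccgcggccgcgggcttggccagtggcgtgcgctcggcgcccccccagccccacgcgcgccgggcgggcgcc
Zeb1 (chr17:56810654-56810903, - strand): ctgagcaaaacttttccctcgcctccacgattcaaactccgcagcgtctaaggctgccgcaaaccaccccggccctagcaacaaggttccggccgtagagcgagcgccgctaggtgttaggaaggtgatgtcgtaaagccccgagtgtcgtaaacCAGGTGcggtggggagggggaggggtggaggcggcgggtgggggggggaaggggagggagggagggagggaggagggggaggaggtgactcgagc

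The Snai1 window holds CACCTG once, with its first base 142 bases before the start, and the Zeb1 window holds CAGGTG once, 95 bases before it. No other factor's window holds the motif on either strand, which makes 2 of 7, against 15.9% of all 33469 windows of this length. The windows of the 4 varying factors had no common base composition: GC content was 69.6% for Snai1, 69.2% for Twist1 and 67.2% for Twist2, but 43.2% for Prrx1. The median over the 15247 genes of the table with a window was 58.0%. A match to these letters describes the sequence and shows no binding.

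Related mesenchymal factors often had the same low point. Of 30 such genes, all found, 21 were tested and 13 passed, 10 of them lowest in ATR 1, against 23.2% and 9.07% of all genes. Their median SD of log2(CPM + 0.5) was 0.19. The most abundant were Tead1 (a partner of the coactivator YAP) at 124, 110 and 116 TPM, Scx (scleraxis, of tendon) at 59.7, 69.7 and 59.4 TPM, and Nr2f6. Among those of at least 1 CPM, the widest spread belonged to Prrx2 and to Foxf1, a forkhead factor of visceral mesenchyme, at 0.23, 1.16 and 1.31 TPM. Other forkhead and mesenchymal factors low in ATR 1, named after their values were seen, were Foxf2 at 0.08, 0.70 and 1.41 TPM, whose SD of 0.99 was wider still, Foxc2 at 0.29, 1.28 and 1.29 TPM, and Hic1 at 0.57, 2.1 and 1.16 TPM. The counts of Hic1 are not whole, and those of each of these forkhead genes are not whole in 1 library, so reads may be shared. With the biological coefficient of variation added, 5 of the 21 passed (Prrx2, Foxc2, Foxf1, Foxf2 and Hic1), against 3.25% of all genes. The chi-square test passed 3 of 21 without ATR 1 and 8 of 19 without ATR 3, against 11.9% and 17.3% of all genes.

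Hedgehog genes that act upstream of Gli1 were expressed, while Gli1 itself was near the counting limit. Of 16 listed genes 14 were found, and 12 of these reached 1 TPM. The signal transducer Smo stood at 57.0, 56.1 and 55.95 TPM, the ligand Dhh at 29.8, 27.5 and 28.1 TPM, and Disp1, which releases ligand, at 17.5, 14.3 and 14.9 TPM. The ligand Ihh stayed at or below 0.20 TPM. Of the Gli factors, Gli3, largely a repressor, led at 3.68, 4.60 and 5.26 TPM, followed by the activator Gli2 at 1.70, 1.20 and 1.51 TPM, and the receptor and target Ptch1 stood at 3.63, 3.66 and 4.11 TPM. Of the 12 tested, 5 passed, 3 of them lowest in ATR 1, against 23.2% and 9.07% of all genes. The count that passed was 3 without ATR 1 and 1 without ATR 2, against 11.9% and 14.6% of all genes. The coreceptors Gas1 (3.77, 14.1 and 4.01 TPM) and Boc (4.66, 6.89 and 4.10 TPM) had the widest spread and were highest in ATR 2. With the biological coefficient of variation added these alone passed, against 3.25% of all genes.

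Partners and inhibitors of the factors were abundant. All 22 reached 1 TPM, with a median of 67.9 TPM and a median SD of 0.06 on the log2 scale, against 0.09 over all genes tested. Id3, which blocks helix-loop-helix pairing, led at 402, 501 and 449 TPM, followed by the kinase Csnk1a1 at 397, 386 and 398 TPM and the deacetylase Hdac1 at 241, 237 and 245 TPM. Of the 22 tested, 7 passed, 2 of them lowest in ATR 1, 1 in ATR 2 and 4 in ATR 3, against 23.2% of all genes that passed. The count was 4 without ATR 2 and 1 without ATR 3, against 14.6% and 17.3% of all genes. The widest spread was that of Ezh2, a histone methyltransferase, at 14.2, 13.3 and 17.5 TPM, and of Id4 at 6.29, 8.27 and 7.48 TPM, which did not pass (adjusted p = 0.249). With the edgeR coefficient of variation added, 0 of the 22 passed, against 3.25% of all genes, and 0 had an unadjusted p under 0.05.

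Epithelial regulators were mostly scarce. Of 14 listed, 10 were found and 4 reached 1 TPM, among them Klf4 at 26.2, 27.4 and 27.9 TPM and Klf5 at 5.81, 4.51 and 6.20 TPM. Grhl3 followed Klf5 in spread, at 0.72, 0.95 and 0.88 TPM. Of the 6 tested, 0 passed the chi-square test, against 23.2% of all genes, and 2 had an unadjusted p under 0.05. With the edgeR coefficient of variation added, 0 passed, against 3.25% of all genes, and 0 had an unadjusted p under 0.05. Without ATR 1, 1 of the 6 passed, Klf5, against 11.9% of all genes.

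Genes that EMT is known to lower were present in part. Cdh1, the classical target of the Snail and Zeb factors, had 27, 24 and 22 reads, or 0.68, 0.60 and 0.54 TPM. It did not pass the chi-square test (adjusted p = 0.868), but with so few reads only a large difference could pass. Whether its level follows that of Snai1 was not tested. Of 19 genes found of 20, 11 reached 1 TPM. The keratins Krt8 (374, 412 and 429 TPM) and Krt18 (138, 162 and 168 TPM) and the tricellular junction protein Lsr (179, 170 and 169 TPM) led. Of the 12 tested, 3 passed, Krt8, Krt18 and the desmosome protein Pkp1 (6.91, 10.2 and 16.5 TPM). This count is near the 23.2% of all genes, and it was 1 without ATR 1, against 11.9% of all genes. Each of the 3 was lowest in ATR 1 and highest in ATR 3. Each also has counts that are not whole in at least 1 library. Of the 8 genes with whole counts alone 0 passed the chi-square test, against 20.9% of all genes, with 2 at an unadjusted p under 0.05. Cldn3, second in spread, stood at 2.71, 3.00 and 3.68 TPM and did not pass. With the coefficient of variation added, Pkp1 alone passed, against 3.25% of all genes.

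Genes that EMT is known to raise were the most abundant of these lists, with a median of 286 TPM over 28 genes. Tagln led at 11357, 10751 and 10563 TPM, followed by Sparc at 6207, 6203 and 6383 TPM and Acta2 at 5853, 5282 and 5352 TPM. The intermediate filament Vim stood at 3202, 3391 and 3592 TPM and N-cadherin (Cdh2) at 162, 160 and 168 TPM. At such depth 24 of 26 tested passed the chi-square test, 14 of them lowest in ATR 1, against 23.2% and 9.07% of all genes. With the coefficient of variation added 7 passed (Col1a2, Col3a1, S100a4, Thy1, Pdgfra, Pdgfrb and Mmp2), each lowest in ATR 1, against 3.25% of all genes. Some counts of Col1a2 and Pdgfra are not whole. Thy1 (23.2, 104 and 82.7 TPM) and Pdgfra (1.36, 5.27 and 3.67 TPM) had the widest spread. In contrast, 6 of the 24 were highest in ATR 1: Tagln, Acta2, Postn, Itgav, Lox and Ctgf (Ccn2). Of the 24, 8 were lowest in ATR 2 and 2 in ATR 3.

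**Figure D4:**
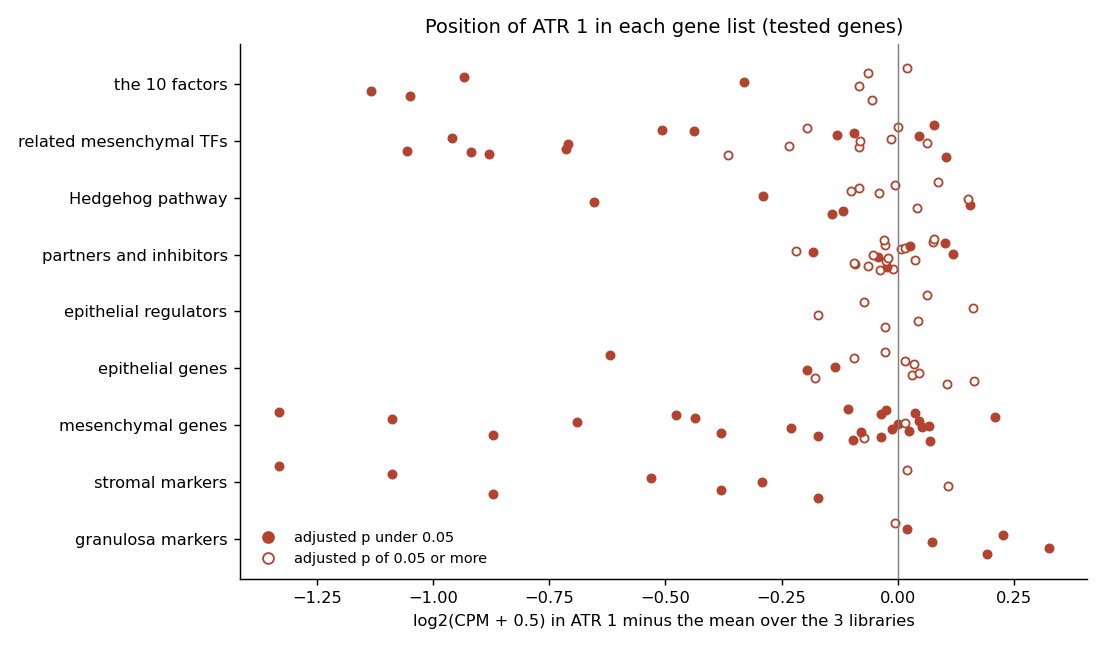
Difference of log2(CPM + 0.5) in ATR 1 from the mean over the 3 ATR libraries, for each tested gene of the 10 factors, of 6 related gene lists and of 2 marker lists; filled points passed the chi-square test. Snai1, Prrx1 and Twist2 lie at -1.13, -1.05 and -0.93, the stromal markers that passed lie left of 0 and the granulosa markers that passed lie right of 0.

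Most stromal fibroblast markers shared the low point of the varying factors in ATR 1, but not always their high point. Of 10 stromal markers 9 were found and none was at 0, and 7 of the 9 passed, each lowest in ATR 1, against 23.2% and 9.07% of all genes. Of these 7, 5 were highest in ATR 2, as was Prrx1, and 2 in ATR 3, as were Snai1, Twist1 and Twist2. Dcn and Pi16 did not pass, and Dcn stood at 25.3, 22.8 and 21.2 TPM. With the coefficient of variation added 5 of the 9 passed (Pdgfra, Col1a2, Thy1, Col3a1 and Mfap5), against 3.25% of all genes. Pdgfra, Col1a1, Col1a2, Thy1 and Col3a1 are also in the list of genes that EMT raises, so those results are not independent. Without ATR 1 the chi-square test passed 7, against 11.9% of all genes. Of 6 tested granulosa markers 5 passed, against 23.2% of all genes, and 0 of these were lowest in ATR 1. Among them, Inhba and Gja1 had SDs of 0.04 and 0.06 on the log2 scale, against a median of 0.09 over all genes tested. They passed on at least 10333 reads in each library. Among the 6, 4 passed and were highest in ATR 1, against 8.26% of all genes tested. The 5 that passed were each lowest in ATR 3, a combination held by 5.65% of all genes tested. Of the 3087 genes that passed, 1099 were highest in ATR 1 and 752 were lowest in ATR 3. The count that passed was 3 without ATR 1 and 3 without ATR 3, against 11.9% and 17.3% of all genes. With the edgeR coefficient of variation added, 0 of the 6 granulosa markers passed and 2 had an unadjusted p under 0.05. Of the other marker lists, 7 of 8 tested surface epithelium markers passed, 5 of 7 smooth muscle markers, 2 of 3 theca markers and 1 of 7 leukocyte markers, against 23.2% of all genes. Krt8 and Krt18 are in both the surface epithelium list and the list of genes that EMT lowers. Surface epithelium stood at 4 without ATR 1, smooth muscle at 3 without ATR 2, and theca at 1 without ATR 1. The shares of all genes were 11.9% without ATR 1 and 14.6% without ATR 2. Leukocyte markers stood at 0 without ATR 1 in the chi-square test, with 2 at an unadjusted p under 0.05. With the edgeR coefficient of variation added, these counts were 2, 2, 0 and 0, against 3.25% of all genes. An unadjusted p under 0.05 was held by 2 theca and 1 leukocyte markers. Of 3 endothelial markers 0 passed the chi-square test, with 0 at an unadjusted p under 0.05, and no oocyte marker had the reads to be tested. The part of these cell types in the levels of Snai1, Twist1, Twist2 and Prrx1 was not tested.

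The genes closest in pattern to each varying factor were ranked by the distance between log2 deviations over the 3 libraries, among 2689 or 2690 genes of at least 5 CPM that passed the test. For Prrx1 they were Clmp, Lrrc32, C1qtnf5, Sdk2 and Pdgfra, at distances of 0.05 to 0.12. Clmp, an adhesion protein, stood at 1.89, 7.53 and 4.81 TPM. For Snai1 they were Gpr153, LOC100911685, Acvrl1, Prrx2 and Esm1, at 0.14 to 0.31. Twist1 lay nearest to Tmem154, Ripk3, Slc2a3, Gli3 and Nkain1, at 0.02 to 0.06, so that the Hedgehog factor Gli3 shared its low point in ATR 1. Twist2 lay nearest to Wbp1, Arl4c, LOC100911685, Dcun1d2 and Ccnd1, at 0.04 to 0.27. With 3 libraries many genes share any one pattern by their low and high points alone, so these names describe likeness and nothing further.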

How the data were processed

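The authors deposited, per the file headers, a TPM value and an estimated read count for each gene in each of the 3 ATR libraries. Per the submitters' processing notes, the tools were StringTie 2.1.5, HISAT2 2.2.1 and fastp 0.20.1, and the builds Rnor_6.0 and GRCm38, with no role given. Per the labels' protocols, poly(A) RNA was read as pairs of 150 bases with no strand-marking step. Of the gene identifiers, 93.5% were found in RefSeq GRCr8. The deposited estimated counts were not whole by more than 0.001 in 19.0% to 19.2% of values and were rounded. The planned contrast of ATR with Control was not run, because Control columns are not used here. In its place stood the chi-square test between libraries scaled with TMM (edgeR 4.0.16, R 4.3.3). It was tried on simulated counts, with a check set only for counting noise alone, the noise the test assumes. That check does not cover the wider spread of real libraries. Intervals are exact (Clopper-Pearson) and, like the limit of 3 reads for a count of 0, cover counting error only, since reads without molecular identifiers are not independent molecules. TPM values, which the authors scaled by transcript length, served for levels and were not tested. Alternatives were library totals, DESeq2 1.42.0 size factors, a minimum of 1 read, whole counts alone, each library left out, and, chosen after seeing the data, the added coefficient of variation. The rule of at least 2 times the scaled reads of ATR 1 was not planned. The factors and lists were chosen with earlier results of these data known. Named from each related list were the 3 genes with the highest mean TPM, the 2 with the widest spread at 1 CPM or more, and relatives of the factors, except 1 gene that is not reported here. Cdh1, Vim, Cdh2, Ihh, Ptch1 and the other genes outside this rule were named after their values were seen. Python 3.11.15, pandas 2.3.3 and scipy 1.17.1 were used.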

Additional observations from a re-analysis of the deposited data

How the results depend on the processing

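No paired analysis was possible because 1 group, ATR, was analysed, and the alternatives planned for ATR against Control were not run. The count of 4 varying factors was the same 4 genes with library totals, with DESeq2 size factors, with a minimum of 1 read, with whole counts alone, and without ATR 2 or ATR 3. It ranged from 1 to 4 with a library left out, the lowest without ATR 1, when Prrx1 remained. The count of all genes that varied, 3087, was 3167 with library totals and 2125 with whole counts alone. It ranged from 1526 without ATR 1 to 2230 without ATR 3, with 1871 without ATR 2, where fewer libraries are compared. With the biological coefficient of variation added, 432 genes and 3 of the 8 factors passed. The 24 read ratios moved by at most 1.05% under the other scalings. The count of factors at 1 TPM stayed at 8 with each library left out. At these depths Tcf21 and Gli1 cannot be ranked, and Twist2 ratios carry wide intervals.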
